A study of Mus musculus with 54 samples.

Results

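The RNA interference machinery was followed through 9 genes, Ago1, Ago2, Ago3, Ago4, Dicer1, Drosha, Dgcr8, Tarbp2 and Xpo5, which were chosen by symbol from the 39179 gene identifiers of the count files. All 9 genes passed the filter on low counts in both experiments of the series. RNA-seq was performed on thioglycolate-elicited peritoneal macrophages of C57BL/6 mice aged 8 to 20 weeks, taken 4 days after the injection. In the polarization experiment, macrophages of 3 mice were cultured for 24 h, either unstimulated (M0), with LPS at 100 ng/ml plus IFNγ at 50 ng/ml (M1-like) or with IL-4 at 10 ng/ml (M2-like). The reprogramming experiment had 12 conditions with 3 replicates each. Each of the 3 states was kept untransfected or was mock treated, that is, given the transfection reagent DharmaFECT 4 without siRNA, and M2-like macrophages also received 1 of 6 siRNA pools. The pools were a negative pool, pools against E2f1, Myc, Pparg or Stat6, and the combined pool against all 4 transcription factors (iM1). The Myc siRNA came from Dharmacon and those against E2f1, Pparg and Stat6 from siTools Biotech, and the methods name no maker of the negative pool. Transfection followed 24 h of polarization, and RNA was taken 48 h after transfection. The methods state that M2-like macrophages were kept without IL-4 after transfection. The methods place RNA-seq of macrophages without transfection at 24 h of polarization, without saying whether this includes the untransfected samples of the reprogramming experiment. They call the 3 replicates of iM1 and of the 3 polarization states biological, without naming the mice, and do not describe those of the other pools, so that p-values of this experiment measure the spread between these samples. Replicates of a condition differed there by a chi-square per gene of 4.48 to 23, where technical replicates of a mouse differed by 1.07 to 1.1.

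RNA interference silences transcripts that pair with a short guide RNA. Primary microRNA transcripts are cut in the nucleus by the Microprocessor, which consists of the RNase III enzyme Drosha and its RNA-binding partner Dgcr8, and the resulting hairpins are carried to the cytoplasm by Exportin-5 (Xpo5). Dicer1, helped by the double-stranded RNA-binding protein Tarbp2, trims the hairpins to duplexes, and 1 strand of each duplex is loaded into an Argonaute protein. A synthetic siRNA enters this route at the loading step and does not need Drosha, Dgcr8 or Xpo5. Of the mouse Argonautes, Ago2 is the one known as the slicer that cuts fully paired targets, while Ago1, Ago3 and Ago4 act mainly through the recruitment of Tnrc6 proteins and the deadenylation and decay of the target. The comparisons below ask whether polarization, the transfection reagent and the loading of siRNA go along with other mRNA levels of this machinery.

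Ago1, Ago3 and Ago4 lie next to each other on the minus strand of chromosome 4 (GRCm38). Ago3 spans chr4:126331704-126429556, Ago1 chr4:126435012-126468583 and Ago4 chr4:126489541-126533472, and the 201.8 kb from the first to the last base hold no other protein-coding gene. Ago2 lies apart from them at chr15:73095844-73184935 on the minus strand. Drosha (chr15:12824815-12935291, plus strand) and Tarbp2 (chr15:102518192-102523676, plus strand) are on the same chromosome. Dicer1 is at chr12:104687742-104751952 on the minus strand, Dgcr8 at chr16:18253948-18289246 on the minus strand and Xpo5 at chr17:46202782-46243598 on the plus strand. Reads were counted over the exons of each gene, untranslated regions included. Of the exonic bases of Dgcr8, 17.1% are shared with other genes, mostly with Trmt2a on the opposite strand, and 1.6% of those of Ago2 are shared with Chrac1. The strand setting of the counting is not given in the sources used here, so reads in these bases could not be told apart.

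The Argonautes are near enough in sequence for reads to be shared, so stretches of 50 bases, the read length of the polarization experiment, were compared between all GENCODE transcripts. Of the Ago1 stretches 1.53% occurred in another gene, of the Ago3 stretches 0.731% and of the Ago4 stretches 0.29%, with Ago3 and Ago1 as each other's partners. The share was 3.46% for Ago2, led by the gene model Gm6088, and 14.3% for Tarbp2, whose stretches recur in the gene models Gm18584 and Gm18561. Dgcr8 had the largest share, 15%, led by Trmt2a. Gm6088 held 445 to 785 reads per sample in the polarization experiment and 0 to 5 in the reprogramming experiment, beside 4186 to 19605 reads of Ago2 over both. Trmt2a held 496 to 1206 reads per sample in the polarization experiment and 302 to 632 in the reprogramming experiment, beside 117 to 621 reads of Dgcr8 over both. No stretch of Xpo5 occurred elsewhere.

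The bases before the start sites of 4 members are shown, also because the siRNA pools were aimed at transcription factors. These 4 were picked from the results below. Ago1 and Ago4 were lower and Drosha and Tarbp2 higher in 24 h M1-like against M0 macrophages and in the mean of 6 siRNA pools against M2-like mock. Xpo5 was lower in both as well, and other comparisons did not all show this pattern. They were read from RefSeq promoters (GRCm38.p6), cut to the part outside annotated exons, and run in the direction of transcription. Capitals mark CCAAT (bound by NF-Y) and GGGCGG (the GC box bound by Sp1) on either strand. The Ago1 stretch is chr4:126468584-126468833, the Ago4 stretch chr4:126533473-126533708, the Drosha stretch chr15:12824650-12824814 and the Tarbp2 stretch chr15:102517942-102518191.
Ago1 promoter: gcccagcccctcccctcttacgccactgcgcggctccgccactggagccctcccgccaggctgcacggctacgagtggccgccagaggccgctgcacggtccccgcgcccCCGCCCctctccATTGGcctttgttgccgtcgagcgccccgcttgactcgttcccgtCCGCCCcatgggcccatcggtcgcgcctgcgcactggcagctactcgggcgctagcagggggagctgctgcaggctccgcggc
Ago4 promoter: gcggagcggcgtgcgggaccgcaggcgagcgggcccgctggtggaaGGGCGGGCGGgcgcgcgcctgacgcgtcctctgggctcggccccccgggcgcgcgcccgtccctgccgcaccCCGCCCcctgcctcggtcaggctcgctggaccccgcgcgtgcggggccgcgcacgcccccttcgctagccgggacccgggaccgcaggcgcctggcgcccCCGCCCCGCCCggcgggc
Drosha promoter: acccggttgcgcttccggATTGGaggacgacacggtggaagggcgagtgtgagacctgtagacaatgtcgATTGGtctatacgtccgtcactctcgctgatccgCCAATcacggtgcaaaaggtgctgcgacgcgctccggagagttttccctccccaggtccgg
Tarbp2 promoter: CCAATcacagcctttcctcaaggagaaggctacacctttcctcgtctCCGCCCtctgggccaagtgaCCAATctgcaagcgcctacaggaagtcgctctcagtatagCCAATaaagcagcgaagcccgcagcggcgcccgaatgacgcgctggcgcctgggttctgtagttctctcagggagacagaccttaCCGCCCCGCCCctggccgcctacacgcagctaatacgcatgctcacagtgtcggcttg
The stretches of the 8 members with a promoter entry, 136 to 250 bases long, were 60% (Drosha and Tarbp2) to 85.2% (Ago4) G or C, with Ago1 at 74.4% and those of Xpo5, Dicer1, Dgcr8 and Ago3 between 72.9% and 77.2%. The median of all 32851 promoters over 250 bases is 52.4%. The Drosha stretch holds CCAAT at 3 places and no GC box, whereas the Ago4 stretch holds 5 GC boxes, some of them overlapping, and no CCAAT. Ago1 and Tarbp2 hold both. Among all promoters CCAAT occurs in 33.8% and GGGCGG in 32.7%. None of the 8 members, all but Ago2, holds in its 250 bases the E-box CACGTG known for Myc (6.02% of all promoters), the E2F letters TTTCCCGC (0.895%) and TTTGGCGC (0.417%), or the STAT letters TTCNNNGAA (7.02%), searched on both strands. A match or its absence here describes letters in a window and not binding.

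The count files held 19714994 to 29880494 reads on genes per library in the polarization experiment, where the 2 technical replicates of a mouse were summed, and 13421854 to 19704195 in the reprogramming experiment. Levels are given as CPM (counts scaled to library size after TMM normalization), and changes as log2 fold changes with their standard error (SE) and the adjusted p of edgeR's quasi-likelihood test over all genes tested (called at an adjusted p under 0.05). The siRNA targets lay at 21.9% to 38% of the negative pool in their own pools and at 28.3% to 60.4% in the combined pool. All 5 macrophage markers were present in every condition, with 6042 to 18090 CPM in sum, and M1-like samples had a smaller sum than M0 samples (9524 to 10440 against 15970 to 17250 CPM at 24 h, 6473 to 7616 against 16310 to 16630 CPM untransfected, 6042 to 7036 against 12490 to 15150 CPM after mock treatment). None of the 4 T cell markers reached 1 CPM in the mean of any condition. Sums of the other lists were small, and some moved with polarization. The 4 B cell markers summed to 4.39 to 19.3 CPM in untransfected M1-like and 18.6 to 58.8 CPM in untransfected M0 macrophages, but to 22.3 to 23.7 and 13.3 to 23.4 CPM at 24 h. The 4 neutrophil markers summed to 12.2 to 13.1 CPM in untransfected M1-like and 6.02 to 10.2 CPM in untransfected M0 macrophages, and the 4 mesothelial markers to 0.366 to 1.2 and 4.9 to 8.2 CPM. Of the 4 eosinophil markers, Siglecf made up nearly all of 0.611 to 1.7 CPM in untransfected M1-like and 16.1 to 24.4 CPM in untransfected M0 macrophages, and Prg2, Epx and Ccr3 stayed under 1 CPM in the mean of every condition. The part of such cells in the results was not tested, and fewer cells of a type and less RNA per cell cannot be told apart in these bulk samples.

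Per kb of exon, Ago2 mRNA was the most abundant of the 9 in all 15 conditions, from 19 CPM per kb in 24 h M2-like to 40.3 CPM per kb in M0 mock macrophages. Ago1 came next in most conditions, with 9.91 CPM per kb in 24 h M0 macrophages, and Tarbp2 took that place in M1-like macrophages of the reprogramming experiment and in the combined and Myc pools. Dgcr8 had the lowest level in 14 conditions, between 1.01 and 1.49 CPM per kb. In the remaining condition, 24 h M1-like, Ago4 was lowest with 1.24 CPM per kb. With the longest transcript in place of all exons Ago2 stayed first in every condition, and the order below it changed. Ago1 then lost the second place to Tarbp2 in untransfected M0 macrophages and the negative, E2f1, Pparg and Stat6 pools. It lost that place to Drosha in 24 h M1-like macrophages. Ago3 lay under Dgcr8 in 24 h M2-like and untransfected M0 macrophages. Neighbours in the order of conditions mostly overlapped: of the 11 neighbouring pairs of conditions in the reprogramming experiment, the sample ranges overlapped in all 11 for Ago3, Dicer1, Dgcr8, Tarbp2 and Xpo5, in 10 for Ago2 and Drosha, in 9 for Ago4 and in 8 for Ago1.

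**Figure D1:**
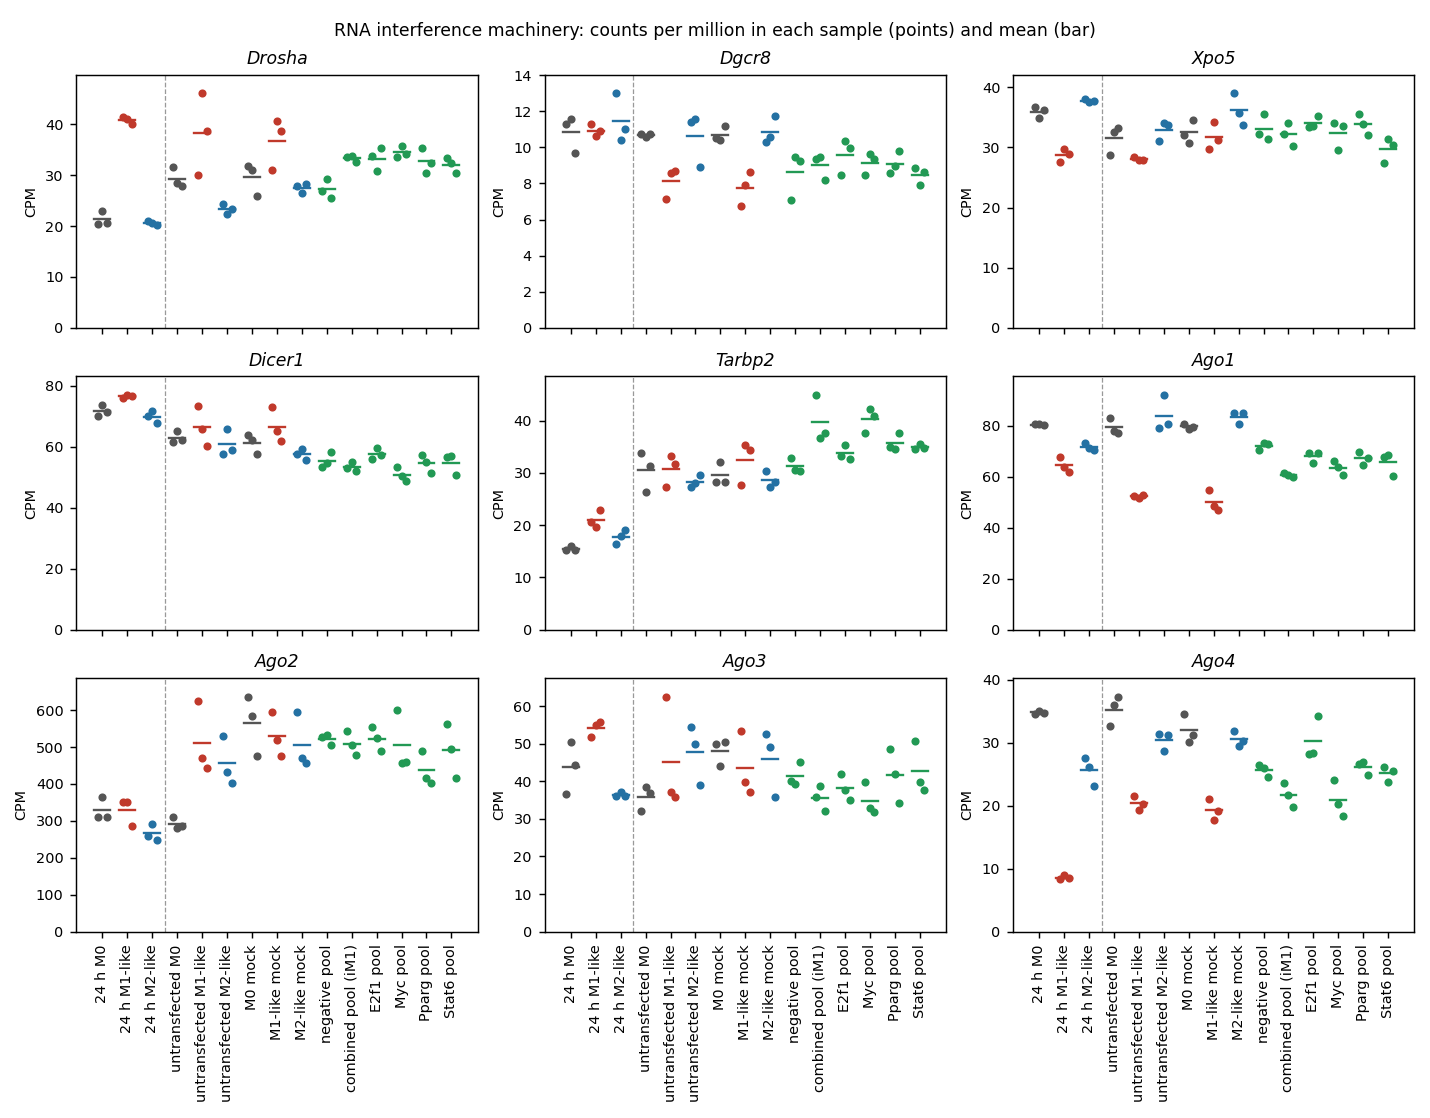
Each panel shows 1 gene, with CPM on the vertical axis from 0, the 15 conditions on the horizontal axis, 1 point per sample and a bar at the mean of 3 samples (grey M0, red M1-like, blue M2-like, green siRNA pools in M2-like macrophages, and the dashed line separates the experiments, which were normalized separately). Ago4 fell to between 8.32 and 8.91 CPM in 24 h M1-like macrophages, and Ago2 was lower in untransfected M0 macrophages, at 280 to 310 CPM, than in any other sample of the reprogramming experiment.

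At 24 h, M1-like macrophages differed from M0 in 6 of the 9 genes, with Drosha, Tarbp2 and Ago3 higher and Ago1, Ago4 and Xpo5 lower, where 72.9% of the 16110 genes tested were called (35.4% higher, 37.5% lower). Against M2-like macrophages 8 of 9 were called, 5 higher and 3 lower, all but Dgcr8 (72.6% of all genes, 34.6% higher and 38.1% lower). M2-like macrophages differed from M0 in 3 of 9, all Argonautes and all lower (27.9% of all genes, 13.5% higher and 14.4% lower). Untransfected M1-like and M0 macrophages differed in 5 of 9, 2 higher and 3 lower (57.7% of 14172 genes, 29.0% higher and 28.7% lower). Untransfected M2-like and M0 differed in 2, with Ago2 higher and Drosha lower (19.9%, with 10.7% higher and 9.19% lower), and M1-like and M2-like in 5, 1 higher and 4 lower (61.5%, with 31.3% higher and 30.2% lower). After mock treatment M1-like differed from M0 macrophages in 4, 1 higher and 3 lower (60.4%, with 30.3% higher and 30.0% lower), and from M2-like in 6, 2 higher and 4 lower (60.7%, with 30.9% higher and 29.8% lower). Mock treated M2-like and M0 macrophages differed in 0 of 9 by edgeR and by DESeq2, and 0 members had an unadjusted p under 0.05 (3.83% of all genes called by edgeR, 2.19% higher and 1.64% lower). The share of members called lay near that of all genes in most of these comparisons, and the median log2 fold change of the 9 lay between -0.095 and 0.133, where that of all genes lay between -0.057 and 0.028.

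Drosha, the catalytic subunit of the Microprocessor, was higher in M1-like macrophages in all 3 settings. At 24 h it was measured at 20.4, 23 and 20.5 CPM in M0, 41.5, 41 and 40 CPM in M1-like and 21, 20.6 and 20.2 CPM in M2-like macrophages of mice 1, 2 and 3. All M1-like samples lay far above the other 6, with a log2 fold change of 0.94 (SE 0.064, adjusted p = 5.34e-08) over M0 and 0.99 (SE 0.064, adjusted p = 3.54e-08) over M2-like. In untransfected macrophages the increase was 0.38 (SE 0.107, adjusted p = 0.00276) over M0 and 0.71 (SE 0.109, adjusted p = 1.19e-06) over M2-like. There the M1-like samples stood at 30.1, 46 and 38.6 CPM, M0 at 31.5, 28.5 and 27.9 CPM and M2-like at 24.3, 22.4 and 23.3 CPM, so that 1 M1-like sample fell within the M0 range. Without untransfected M1-like replicate 2 the difference to M0 was no longer called (adjusted p = 0.0684). Mock treated M1-like macrophages had 0.31 (SE 0.106, adjusted p = 0.0115) over M0 mock, again with overlap and lost without M1-like mock replicate 2 (adjusted p = 0.0881) or M0 mock replicate 3 (adjusted p = 0.0919), and 0.42 (SE 0.107, adjusted p = 0.00119) over M2-like mock. The lower Drosha of untransfected M2-like against M0 macrophages (-0.33, SE 0.11, adjusted p = 0.0341) was lost when any of 5 of the 6 libraries was left out, and only without untransfected M0 replicate 3 did it stay (adjusted p = 0.0474).

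Dgcr8, which holds the primary transcript for Drosha, did not go with its partner. At 24 h its 9 samples lay between 9.69 and 13 CPM, and M1-like and M0 macrophages differed by 0.011 (SE 0.099, adjusted p = 0.929), with a 95% interval from -0.21 to 0.23. In the reprogramming experiment it was lower in M1-like macrophages. Untransfected M0 samples were at 10.8, 10.5 and 10.7 CPM, M1-like at 7.14, 8.57 and 8.71 CPM and M2-like at 11.4, 11.5 and 8.93 CPM, with M1-like below all others. The log2 fold change was -0.39 against M0 (SE 0.121, adjusted p = 0.00623) and -0.38 against M2-like (SE 0.121, adjusted p = 0.00673), and both lost their call without untransfected M1-like replicate 1 (adjusted p = 0.0506 and 0.0534). Mock treated macrophages gave -0.46 (SE 0.118, adjusted p = 0.00121) and -0.48 (SE 0.119, adjusted p = 0.000772). Over the 24 h, untransfected and mock treated samples Dgcr8 ranged from 6.74 to 13 CPM. The part of reads shared with Trmt2a in these values and the difference between the experiments were not tested.

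Xpo5, the exporter of the hairpins, was lower in 24 h M1-like macrophages, at 27.6, 29.7 and 29 CPM, than in M0 at 36.8, 34.8 and 36.2 CPM and in M2-like at 38.1, 37.5 and 37.7 CPM. The 3 groups did not overlap, although M2-like and M0 did not differ by the test (0.071, SE 0.056, adjusted p = 0.377). M1-like macrophages reached 80% of the M0 level (-0.32, SE 0.057, adjusted p = 0.00026) and 76.2% of the M2-like level (-0.39, SE 0.057, adjusted p = 5.14e-05). Differences in the reprogramming experiment had smaller estimates, and the difference between the experiments was not tested. Untransfected M1-like macrophages had 85.2% of the untransfected M2-like level (-0.23, SE 0.079, adjusted p = 0.012, and 0.0558 without the filter on low counts). The mock treated pair gave 87.7% (-0.19, SE 0.077, adjusted p = 0.0343), a call lost without any 1 of 4 of the 6 libraries (M1-like mock replicates 1 and 3 and M2-like mock replicates 1 and 2, adjusted p from 0.0538 to 0.19), without the filter on low counts (adjusted p = 0.108) and with only the compared groups in the model (adjusted p = 0.0869). Against M0, Xpo5 was not called in untransfected (-0.17, SE 0.079, adjusted p = 0.0704) or mock treated M1-like macrophages (-0.033, SE 0.078, adjusted p = 0.728).

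Dicer1, which makes the duplex, changed little under polarization, with 70.1, 73.6 and 71.3 CPM in M0, 75.9, 76.9 and 76.7 CPM in M1-like and 70, 71.5 and 67.8 CPM in M2-like macrophages at 24 h. The M1-like samples were the highest, yet by only 1.07-fold over M0 (0.094, SE 0.049, adjusted p = 0.103, but 0.0282 with DESeq2 and 0.0326 with RLE size factors) and 1.1-fold over M2-like (0.13, SE 0.049, adjusted p = 0.0288). The latter call did not hold with the mouse as a block (adjusted p = 0.0536), nor without M1-like mouse 2 (adjusted p = 0.065), M1-like mouse 3 (adjusted p = 0.0533) or M2-like mouse 3 (adjusted p = 0.0981). Mock treated M1-like macrophages had 1.16-fold the Dicer1 of M2-like mock (0.21, SE 0.071, adjusted p = 0.012), which was lost without M1-like mock replicate 1 (adjusted p = 0.119), without the filter on low counts (adjusted p = 0.0741) and with only the compared groups in the model (adjusted p = 0.0819). In the remaining polarization comparisons Dicer1 was not called, although untransfected M1-like against M2-like was called without M1-like replicate 3 (adjusted p = 0.0282) or M2-like replicate 2 (adjusted p = 0.0392).

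Tarbp2, the partner of Dicer1, was measured at 15.2, 15.9 and 15.2 CPM in M0, 20.7, 19.7 and 22.9 CPM in M1-like and 16.4, 17.9 and 19 CPM in M2-like macrophages at 24 h, without overlap between M1-like and the others. It was 1.37-fold higher in M1-like than in M0 (0.45, SE 0.079, adjusted p = 0.000259) and 1.19-fold higher than in M2-like macrophages (0.25, SE 0.079, adjusted p = 0.0138, and 0.0671 without M1-like mouse 3). M2-like against M0 gave 0.2 (SE 0.079, adjusted p = 0.0761, and 0.0197 without M2-like mouse 1). None of the 6 polarization comparisons of the reprogramming experiment called Tarbp2, where its log2 fold changes lay between -0.1 and 0.18. The experiments were sequenced separately with different reads, and the difference between them was not tested. The part of reads shared with Gm18584 and Gm18561 was not tested either. Without M1-like mock replicate 1, the lowest of that group at 27.7 CPM, Tarbp2 was called higher in M1-like mock than in M0 mock (adjusted p = 0.0373) and M2-like mock macrophages (adjusted p = 0.0133).

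Ago4 showed the largest polarization change of the 9 genes. At 24 h it stood at 34.6, 35.1 and 34.8 CPM in M0, 8.32, 8.91 and 8.51 CPM in M1-like and 27.6, 26.2 and 23.2 CPM in M2-like macrophages. The 3 groups were fully separate, with M1-like at 24.7% of the M0 level (-2.02, SE 0.076, adjusted p = 2.11e-10), M2-like at 73.6% of it (-0.44, SE 0.07, adjusted p = 0.000791) and M1-like at 33.5% of M2-like (-1.58, SE 0.076, adjusted p = 2.14e-09). Untransfected M1-like macrophages had 21.6, 19.3 and 20.2 CPM of Ago4 beside 32.6, 36 and 37.2 CPM in M0, which is 57.7% (-0.79, SE 0.092, adjusted p = 8.62e-09). Mock treated M1-like macrophages were at 60.4% of M0 mock (-0.73, SE 0.092, adjusted p = 4.27e-08). M2-like and M0 macrophages did not differ by the test in either setting, with -0.21 (SE 0.09, adjusted p = 0.091) untransfected and -0.062 (SE 0.09, adjusted p = 0.78) after mock treatment. The 24 h and untransfected values come from separate experiments with different reads, and the difference between them was not tested.

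Ago1, the neighbour of Ago4, was also lower in M1-like macrophages in all 3 settings. At 24 h it was at 80.7, 80.6 and 80.1 CPM in M0, 67.6, 64 and 61.8 CPM in M1-like and 73.1, 71.2 and 70.3 CPM in M2-like macrophages, again 3 separate groups. M1-like macrophages had 80.1% of the M0 level (-0.32, SE 0.052, adjusted p = 0.000131). The smaller differences of M2-like to M0 (-0.17, SE 0.051, adjusted p = 0.0287) and of M1-like to M2-like (-0.15, SE 0.052, adjusted p = 0.0205) were lost without any of 5 and 3 of the 6 samples, with adjusted p up to 0.092 and 0.0837. M2-like to M0 stayed called only without M2-like mouse 1, and M1-like to M2-like was lost without M1-like mouse 2 or 3 or M2-like mouse 2 and also with DESeq2 (adjusted p = 0.0556). In untransfected macrophages the M1-like samples at 52.4, 51.6 and 53 CPM were far under M0 at 83.2, 77.9 and 77.1 CPM and M2-like at 79, 92 and 80.5 CPM. This was 66% of M0 (-0.6, SE 0.063, adjusted p = 1.04e-09) and 62.4% of M2-like (-0.68, SE 0.063, adjusted p = 5.07e-11). Mock treated M1-like macrophages were at 62.8% of M0 mock (-0.67, SE 0.063, adjusted p = 8.7e-11) and 59.9% of M2-like mock (-0.74, SE 0.063, adjusted p = 8.63e-12).

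Ago3, the third gene of the cluster, did not share this decrease. At 24 h it was higher in M1-like macrophages, at 51.9, 55 and 55.8 CPM, than in M0 at 36.6, 50.6 and 44.2 CPM (0.31, SE 0.096, adjusted p = 0.012) and M2-like at 36, 37.2 and 36 CPM (0.58, SE 0.096, adjusted p = 0.00018). M2-like against M0 gave -0.27 (SE 0.096, adjusted p = 0.0582), which was called with the mouse as a block (adjusted p = 0.0394) and without M0 mouse 1, the lowest of that group (adjusted p = 0.00603). In the reprogramming experiment its samples spread from 31.9 to 62.4 CPM with overlap in all 11 neighbouring pairs of conditions, and none of the 6 polarization comparisons called it. Without the filter on low counts it was called higher in untransfected M1-like (0.33, adjusted p = 0.00653) and M2-like (0.41, adjusted p = 0.00159) than in M0 macrophages. Leaving out 1 library brought calls there in either direction, from 0.47 in untransfected M1-like against M0 without M1-like replicate 3 (adjusted p = 0.0306) to -0.39 against M2-like without M1-like replicate 1 (adjusted p = 0.0465), a sample with 62.4 CPM beside 37.1 and 35.9 CPM. The difference of Ago3 between the experiments was not tested.

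Ago2, the slicer, did not differ between 24 h M1-like and M0 macrophages by the test (0.004, SE 0.099, adjusted p = 0.973), at 350, 350 and 287 CPM and 310, 366 and 309 CPM, with a 95% interval from -0.21 to 0.22. M2-like macrophages had less, at 260, 293 and 248 CPM, which was 81.3% of M0 (-0.3, SE 0.099, adjusted p = 0.0418). This call was lost without any of 5 of the 6 samples, all but M2-like mouse 2, with adjusted p up to 0.18. M1-like were higher than M2-like macrophages (0.3, SE 0.099, adjusted p = 0.0154), which was lost without M1-like mouse 1, M1-like mouse 2 or M2-like mouse 3 (adjusted p up to 0.0598). Untransfected macrophages of the reprogramming experiment gave other values. M0 macrophages had 310, 280 and 285 CPM, M1-like 624, 469 and 443 CPM and M2-like 531, 434 and 404 CPM, so that both polarized groups lay above M0 without overlap. Ago2 was 1.76-fold higher in M1-like (0.81, SE 0.134, adjusted p = 4.8e-06) and 1.56-fold higher in M2-like macrophages (0.64, SE 0.134, adjusted p = 0.000685). After mock treatment M1-like and M0 differed by -0.095 (SE 0.133, adjusted p = 0.553) and M2-like and M0 by -0.16 (SE 0.133, adjusted p = 0.593).

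**Figure D2:**
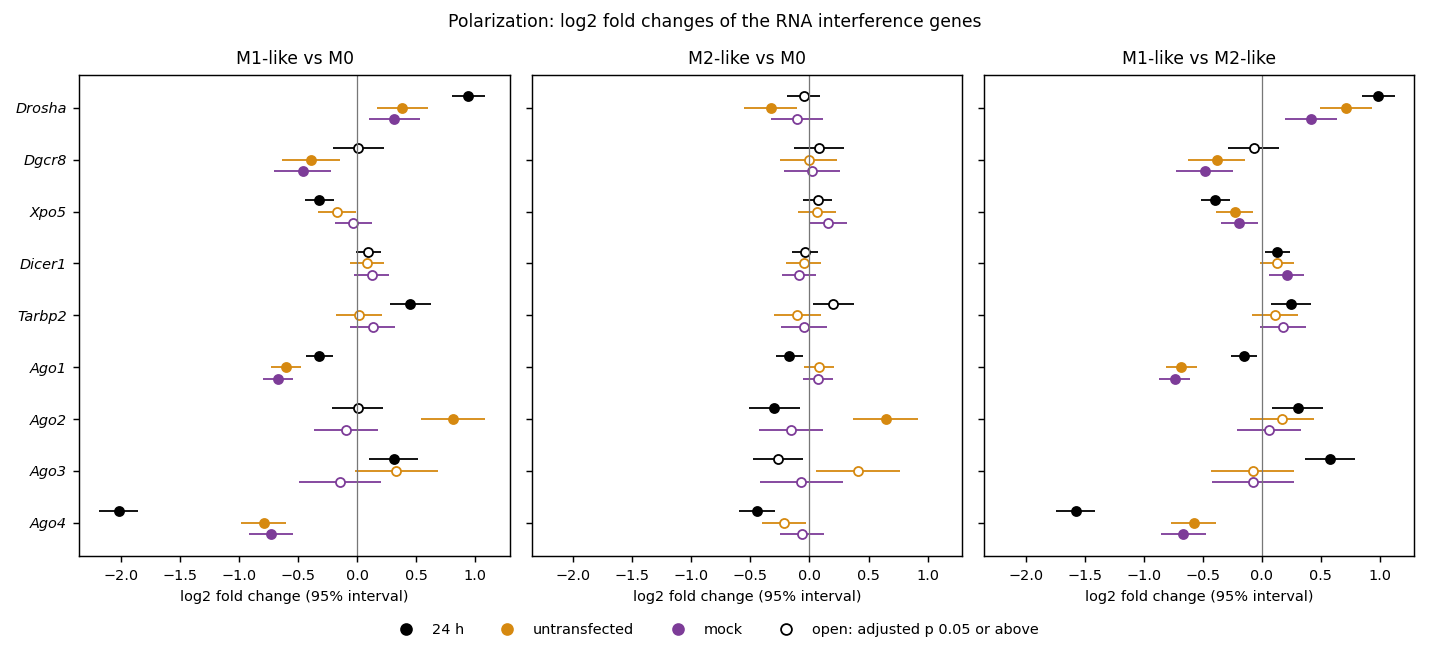
Log2 fold changes (horizontal axis) of the 9 genes with 95% intervals for M1-like against M0, M2-like against M0 and M1-like against M2-like macrophages, in the 24 h samples (black), the untransfected (orange) and the mock treated samples (purple) of the reprogramming experiment. Filled points were called at an adjusted p under 0.05, open points were not. Ago4 and Ago1 lie to the left and Drosha to the right of 0 in all 3 settings of M1-like against M0 and against M2-like macrophages, and Ago2 moves between settings.

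Expressed as a share of the summed CPM per kb of the 4 Argonautes, Ago2 made up 57% ± 1.82 (SD, n = 3) in M0 macrophages at 24 h, 65.2% ± 2.26 after LPS and IFNγ (M1-like) and 56.3% ± 1.92 after IL-4 (M2-like). In the same order, Ago4 made up 12.3% ± 0.708, 3.45% ± 0.285 and 10.95% ± 0.733, and Ago3 6.43% ± 0.7, 9.16% ± 1.03 and 6.53% ± 0.267. In untransfected macrophages Ago2 went from 55% ± 1.51 in M0 to 64.7% ± 3.15 in M2-like and 74.9% ± 1.93 in M1-like samples, while Ago1 went from 25.8% ± 0.464 to 20.8% ± 2.82 and 13.5% ± 2.07. The highest share of Ago2 was 76.5% ± 0.63 in M1-like mock macrophages. The Ago2 share was 67.2% ± 2.34 in M2-like mock macrophages, 71.1% ± 0.737 in the negative pool and 74% ± 0.639 in the combined pool. In the same order, the mean level of Ago2 itself was 506.8, 521.5 and 509.5 CPM, and that of Ago1 was 83.56, 72.19 and 60.72 CPM. These shares are descriptions of mRNA per exon length and were not tested.

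**Figure D3:**
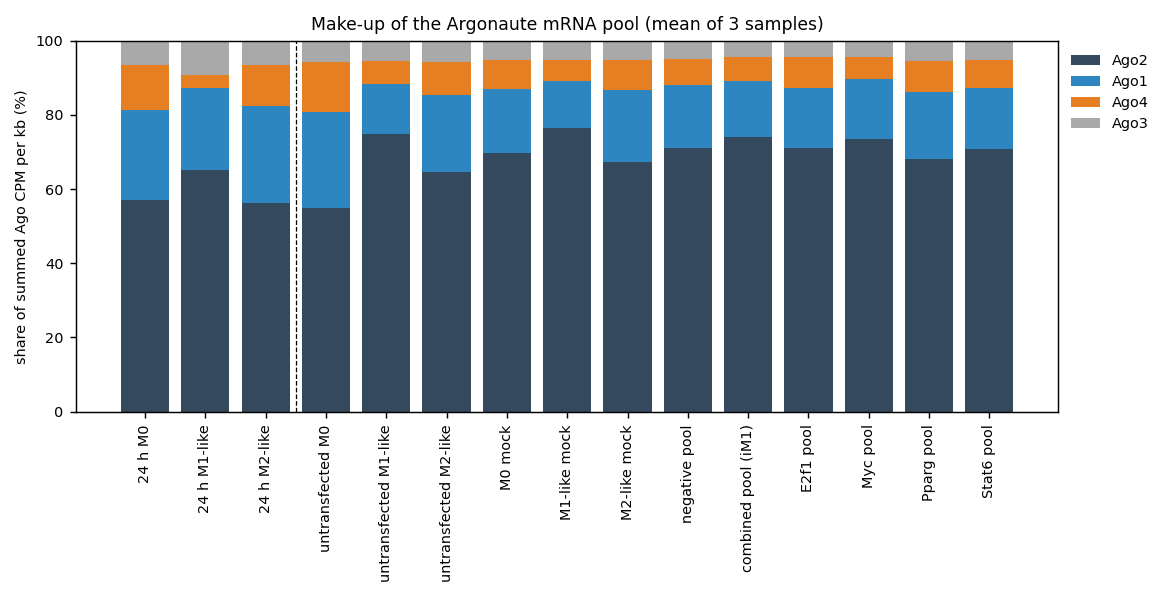
Bars show, for each of the 15 conditions, the share in percent of Ago2, Ago1, Ago4 and Ago3 in the summed Argonaute CPM per kb of exon (mean of 3 samples, vertical axis 0 to 100%, dashed line between the experiments). Ago2 takes 55% in untransfected M0 and 76.5% in M1-like mock macrophages, and the Ago4 band is narrowest in 24 h M1-like macrophages at 3.45%.

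The transfection reagent was examined by comparing mock treated with untransfected macrophages. Should the untransfected samples have been taken at 24 h of polarization, the reagent and the time in culture cannot be told apart in these comparisons. In M0 macrophages 1 of 9 genes was called higher and none lower (20.4% of all genes, 11.7% higher and 8.66% lower), and this was Ago2. Its M0 mock samples at 635, 584 and 476 CPM lay above all untransfected M0 samples, 1.94-fold higher (0.95, SE 0.134, adjusted p = 2.5e-06). In M1-like macrophages none of the 9 and none of all 14172 genes was called by edgeR (0.0%), DESeq2 called none of the 9, and 1 member, Xpo5 (0.17, SE 0.078), and 438 genes had an unadjusted p under 0.05. In M2-like macrophages none of the 9 was called by edgeR or DESeq2 (1.77% of all genes by edgeR, 1.67% higher and 0.0988% lower), with 1 member, Drosha (0.24, SE 0.111), at an unadjusted p under 0.05. The 8 other genes in M0 macrophages had log2 fold changes between -0.14 and 0.42, the latter being Ago3 (SE 0.173, adjusted p = 0.0839).

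Ago2 in untransfected M0 macrophages stood alone, under the 402 to 635 CPM of all other 33 libraries of the reprogramming experiment. The difference between M1-like and M0 macrophages changed from untransfected to mock treated samples by -0.91 (SE 0.188, adjusted p = 0.00137, interaction of mock against untransfected, 9.07% of all genes called, 3.22% higher and 5.85% lower). That between M2-like and M0 macrophages changed by -0.8 (SE 0.188, adjusted p = 0.00828, 5.66% of all genes called, 2.41% higher and 3.25% lower). These interactions were added after the values had been seen. None of the 8 other members was called in either of them, and none of the 9 in the interaction for M1-like against M2-like macrophages by edgeR or DESeq2 (1.13% of all genes by edgeR, 0.0353% higher and 1.09% lower), where no member had an unadjusted p under 0.05. Replicate 1 had the highest Ago2 of its group in 11 of the 12 conditions.

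Loading of siRNA was first examined with the negative pool, which has no intended target. Against M2-like mock macrophages 1 of 9 genes was called lower and none higher (11.7% of all genes, 6.67% higher and 5.03% lower), and this was Ago1, at 70.5, 73.2 and 72.9 CPM beside 85.1, 80.6 and 85 CPM. The groups did not overlap and the level was 86.4% of mock (-0.21, SE 0.062, adjusted p = 0.0227). It was lost without M2-like mock replicates 1 or 3 or negative pool replicates 1 or 3 (adjusted p from 0.0546 to 0.0926) and without the filter on low counts (adjusted p = 0.141). Ago4 had 83.9% of the mock level (-0.25, SE 0.091, adjusted p = 0.0674), with 26.5, 25.9 and 24.5 CPM under all mock samples at 31.9, 29.5 and 30.3 CPM. Dgcr8 had 79.2% (-0.34, SE 0.119, adjusted p = 0.0642). With the replicate number as a block, Ago4 and Dgcr8 were called as well (values in the closing section). Ago2, into which a guide has to be loaded for slicing, was at 526, 533 and 505 CPM beside 595, 469 and 456 CPM in mock, a difference of 0.041 (SE 0.133, adjusted p = 0.894) with a 95% interval from -0.23 to 0.31. Dicer1 (-0.054, 95% interval -0.2 to 0.093) and Drosha (-0.016, 95% interval -0.24 to 0.21) were not called. The summed eosinophil markers, nearly all Siglecf, stood at 33.5 to 38.8 CPM in the negative pool and 18.8 to 20.1 CPM in mock, and their part in these differences was not tested.

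The mean of all 6 pools was set against M2-like mock as a second view of siRNA loading. There 6 of 9 genes were called (27.9% of all genes, 14.0% higher and 13.9% lower), Ago1, Ago4, Dgcr8 and Xpo5 lower and Drosha and Tarbp2 higher. Ago1 was at 79.1% of mock (-0.34, SE 0.047, adjusted p = 9.6e-07), and all 18 siRNA-treated samples, from 60 to 73.2 CPM, lay below the 3 mock samples. Tarbp2 was at 125% (0.32, SE 0.074, adjusted p = 0.00123), with the 18 samples from 30.4 to 44.9 CPM and mock from 27.3 to 30.4 CPM, so that the ranges met without overlap. Ago4 was at 81% (-0.3, SE 0.069, adjusted p = 0.000952). The E2f1 pool, at 28.2, 28.3 and 34.3 CPM of Ago4, overlapped with mock, and the other 5 pools, at 18.4 to 27 CPM, did not. Dgcr8 was at 82.7% (-0.28, SE 0.09, adjusted p = 0.0204, 0.157 without M2-like mock replicate 3 and 0.075 without the filter on low counts). Drosha at 116% (0.22, SE 0.084, adjusted p = 0.0496) and Xpo5 at 89.8% (-0.15, SE 0.059, adjusted p = 0.0476) were at the threshold. The call of Drosha was lost in 17 of 21 cases of leaving out 1 library (all but E2f1 and Pparg pool replicates 2 and Stat6 and negative pool replicates 3), with an adjusted p up to 0.188 without M2-like mock replicate 2. That of Xpo5 was lost in 12 of 21 cases, without mock replicates 1 or 2, replicates 1 or 3 of the combined or negative pool, replicates 1 or 2 of the E2f1 pool, replicates 2 or 3 of the Pparg pool, Myc pool replicate 2 or Stat6 pool replicate 1, with an adjusted p up to 0.372 without mock replicate 1. Ago2 differed by -0.029 (SE 0.101, adjusted p = 0.868, 95% interval -0.23 to 0.18), Ago3 by -0.23 (SE 0.13, adjusted p = 0.19) and Dicer1 by -0.082 (SE 0.055, adjusted p = 0.293). The knockdown pools differ from the negative pool in their targets as well, so that this mean does not separate loading from knockdown, and against untransfected M2-like macrophages Xpo5 was not called (-0.021, adjusted p = 0.818) while Dicer1 was (-0.16, SE 0.054, adjusted p = 0.0201).

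**Figure D4:**
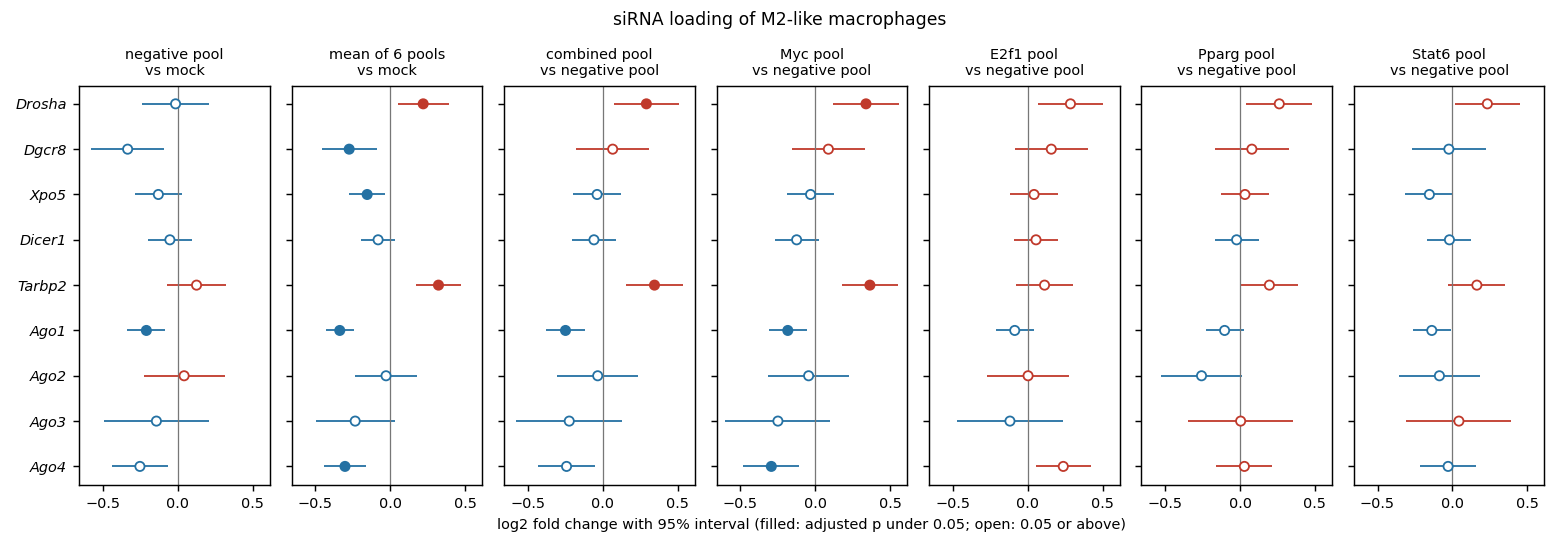
Log2 fold changes with 95% intervals of the 9 genes in siRNA-treated M2-like macrophages, from left to right the negative pool and the mean of 6 pools against mock and the combined, Myc, E2f1, Pparg and Stat6 pools against the negative pool (filled points called at an adjusted p under 0.05, red above and blue below 0). Ago1 lies left of 0 in all 7 panels and Tarbp2 right of 0, while the interval of Ago2 includes 0 in every panel.

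Against the negative pool, the combined pool changed 3 of 9 genes, 2 higher and 1 lower (26.5% of all genes, 12.5% higher and 13.9% lower), and the Myc pool 4 of 9, 2 higher and 2 lower (29.6%, with 13.9% higher and 15.6% lower). Tarbp2 was higher in both, at 44.9, 36.7 and 37.6 CPM in the combined and 37.6, 42.3 and 40.9 CPM in the Myc pool beside 32.8, 30.5 and 30.4 CPM. The log2 fold changes were 0.34 (SE 0.093, adjusted p = 0.00588, and 0.0729 without combined pool replicate 1) and 0.36 (SE 0.093, adjusted p = 0.00314). Drosha was higher as well, at 33.5, 33.7 and 32.7 CPM and 33.5, 35.7 and 34.1 CPM beside 26.9, 29.3 and 25.6 CPM, without overlap. This amounted to 0.29 in the combined pool (SE 0.107, adjusted p = 0.0424) and 0.34 in the Myc pool (SE 0.106, adjusted p = 0.0153). The call in the combined pool was lost without any of 5 of the 6 libraries, all but negative pool replicate 2 (adjusted p up to 0.16), and that in the Myc pool without Myc pool replicate 2 (adjusted p = 0.059) or negative pool replicate 3 (adjusted p = 0.0792).

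Ago1 was lower in the combined pool, at 61.4, 60.7 and 60 CPM (-0.25, SE 0.063, adjusted p = 0.00322), and in the Myc pool, at 66, 63.9 and 60.8 CPM (-0.18, SE 0.062, adjusted p = 0.025), all under the negative pool. Ago4 stood at 23.6, 21.6 and 19.8 CPM in the combined pool (-0.24, SE 0.092, adjusted p = 0.0509, 0.0496 with RLE size factors and 0.0325 without combined pool replicate 1) and was lower in the Myc pool, at 24, 20.2 and 18.4 CPM (-0.29, SE 0.092, adjusted p = 0.0155). In the Myc pool the call of Ago1 was lost without Myc pool replicates 2 or 3 or negative pool replicates 2 or 3, and that of Ago4 without Myc pool replicates 2 or 3 or negative pool replicate 1, with adjusted p up to 0.119 and 0.121. Without the filter on low counts the adjusted p of Ago1 was 0.187. None of the 9 genes was called by edgeR or DESeq2 in the E2f1 pool (0.91% of all genes by edgeR, 0.261% higher and 0.649% lower), the Pparg pool (5.74%, with 2.71% higher and 3.03% lower) or the Stat6 pool (1.51%, with 0.466% higher and 1.04% lower), with 2 members each at an unadjusted p under 0.05. Drosha was among them each time, with 0.29 (SE 0.107, adjusted p = 0.27), 0.26 (SE 0.108, adjusted p = 0.157) and 0.23 (SE 0.108, adjusted p = 0.363). The comparisons of the 5 pools share the negative pool samples.

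Whether the Myc pool differed from the other single pools was tested directly, as a contrast added after the data had been seen. The Myc siRNA had another maker than the E2f1, Pparg and Stat6 pools, so that target and maker cannot be told apart. The combined pool holds the Myc siRNA as well. Against the mean of the E2f1, Pparg and Stat6 pools, the Myc pool was lower in Ago4 (-0.37, SE 0.076, adjusted p = 0.000313) and higher in Tarbp2 (0.21, SE 0.074, adjusted p = 0.0307), 2 of 9 genes where 32.6% of all genes were called (15.7% higher, 17.0% lower). The combined pool was lower than the same mean in Ago4 (-0.32, SE 0.077, adjusted p = 0.00186) and Ago1 (-0.14, SE 0.052, adjusted p = 0.0402), 2 of 9 beside 27.8% of all genes (13.5% higher, 14.3% lower). Drosha did not differ by these tests (0.079, SE 0.085, adjusted p = 0.516 for Myc, and 0.03, SE 0.086, adjusted p = 0.832 for the combined pool).

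Partners of the machinery were followed in 4 lists. In 24 h M1-like against M0 macrophages, where 35.4% of all genes were higher and 37.5% lower, 17 of 25 silencing effectors were higher and 4 lower (median 0.31, all genes -0.037), led by Mov10, an RNA helicase that associates with Argonautes (2.91, SE 0.105), Dcp2, the decapping enzyme (1.61, SE 0.07), the deadenylase subunit Cnot7 (1.3, SE 0.11) and the exonuclease Xrn1 (1.16, SE 0.07). Of 11 processing and export cofactors 8 were higher and 1 lower, with Adar, which edits double-stranded RNA (2.51, SE 0.06), and Ran, which powers the export by Xpo5 (1.35, SE 0.06), at the top, and Prkra, a partner of Dicer1 related to Tarbp2, lower (-1.26, SE 0.07). Of 10 loading chaperones and passenger strand genes 5 were higher and 2 lower, with Hsp90aa1 (1.32, SE 0.1), Hspa8 (1.09, SE 0.06) and Hsp90ab1 (1.06, SE 0.07) first. Of the 9 tested of 12 tailing, trimming and turnover genes (Lin28a, Lin28b and Sidt1 did not pass the filter) 4 were higher, led by the uridylyltransferase Tut7 (1.05, SE 0.06), and 3 lower, led by the deadenylase Parn (-1.03, SE 0.077).

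The lists did not show the same counts in the reprogramming experiment. In untransfected M1-like against M0 macrophages (29.0% of all genes higher and 28.7% lower), 6 of 25 silencing effectors were higher and 5 lower (median 0.057, all genes 0.01), 3 of 11 processing cofactors higher and 1 lower, 2 of 10 chaperones higher and 4 lower, and 4 of 9 tailing genes higher and 1 lower. After mock treatment (30.3% higher and 30.0% lower) these were 5 and 6, 2 and 1, 3 and 3, and 4 and 1 (median of the silencing effectors 0.066, all genes 0.02). Mov10 was lower in M1-like mock than in M0 mock macrophages (-0.995, SE 0.122, adjusted p = 2.28e-08), as was Hspa8 (-0.66, SE 0.081, adjusted p = 2.45e-08), while Ran was higher (0.7, SE 0.097, adjusted p = 2.29e-07). The M0 mock reference had itself moved, since Mov10 was higher in mock treated than in untransfected M0 macrophages (values below). Between M1-like mock and untransfected M1-like macrophages none of all genes was called. The difference of Mov10 to the 24 h samples was not tested.

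After siRNA, the median log2 fold changes of the partner lists lay between -0.018 and 0.07 in the negative pool against M2-like mock. In the Myc pool against the negative pool they lay between -0.02 and 0.085. Single genes of these lists were called in both comparisons, and whether their shares differ from those of all genes was not tested. In the negative pool against M2-like mock (6.67% of all genes higher and 5.03% lower), 2 of 25 silencing effectors were higher and 1 lower (median 0.021, all genes 0.013), 1 of 11 processing cofactors was higher, the lowest adjusted p among 10 chaperones was 0.0984 for Fkbp4, and 1 of 9 tailing genes was higher. The genes called were Mov10 (0.91, SE 0.116, adjusted p = 1.59e-06) and the deadenylase Cnot6 (0.23, SE 0.061, adjusted p = 0.0123), with Snd1 lower (-0.25, SE 0.069, adjusted p = 0.0123), Adar (0.64, SE 0.087, adjusted p = 4.14e-06) and the poly(A) polymerase Tent2 (0.44, SE 0.112, adjusted p = 0.00706). Mov10 and Adar were also higher in mock treated than in untransfected M0 (0.83, SE 0.123 and 0.84, SE 0.089) and M2-like macrophages (0.69, SE 0.122 and 0.995, SE 0.09). In the Myc pool against the negative pool (13.9% of all genes higher and 15.6% lower), 2 of 25 silencing effectors were higher and 2 lower, 3 of 11 processing cofactors higher and 2 lower, 1 of 10 chaperones higher and 1 lower, and 2 of 9 tailing genes lower. There the RNA-binding protein Khsrp (0.33, SE 0.085, adjusted p = 0.0034), the deadenylase Pan2 (0.31, SE 0.104, adjusted p = 0.0219) and the cochaperone Fkbp4 (0.23, SE 0.065, adjusted p = 0.00766) were higher, and the deadenylases Cnot6l (-0.61, SE 0.082, adjusted p = 9.59e-07) and Cnot6 (-0.44, SE 0.061, adjusted p = 1.95e-06) and the tailing enzymes Tent2 (-0.73, SE 0.111, adjusted p = 7.38e-06) and Tut4 (-0.38, SE 0.11, adjusted p = 0.00939) were lower. Of a list of RNA sensing and antiviral genes, which holds sensors of double-stranded RNA such as Ifih1, the single-stranded RNA sensor Tlr7 and interferon-induced genes such as Isg15 and Mx1, 14 of 15 were higher in the negative pool (6.67% of all genes, median 1.07) and 13 of 15 in M0 mock against untransfected M0 macrophages (11.7% of all genes, median 1.84), while the medians of the 9 members were -0.13 and 0.007. In M2-like mock against untransfected M2-like macrophages 12 of 15 were higher (1.67% of all genes, median 2.02), and the median of the 9 members was 0.016. In M1-like mock against untransfected M1-like macrophages none of the 15 was called (0.0% of all genes, median 0.17), and the median of the 9 members was -0.057.

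**Figure D5:**
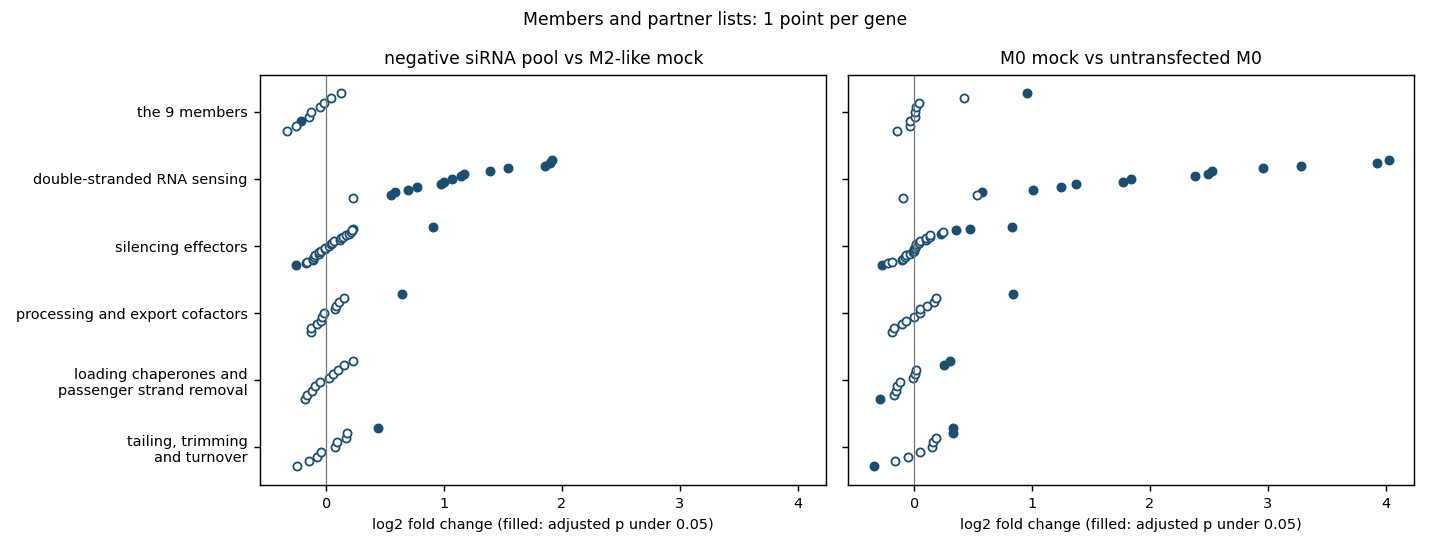
Each point is 1 gene, placed by its log2 fold change in the negative pool against M2-like mock (left) and in M0 mock against untransfected M0 macrophages (right), in rows for the 9 members, the RNA sensing and antiviral list (double-stranded RNA sensing in the plot) and the 4 partner lists (filled points called at an adjusted p under 0.05). The genes of that list spread to 1.92 on the left and 4.03 on the right, and the filled member is Ago1 on the left and Ago2, at 0.95, on the right.

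Over the means of the 12 conditions of the reprogramming experiment, which share libraries and polarization states, the log2 CPM of Ago1 correlated with that of Ago4 (Pearson's r = 0.898) and Dgcr8 (r = 0.903) and in the opposite direction with that of Drosha (r = -0.881). Drosha and its partner Dgcr8 had r = -0.69, and Dicer1 and its partner Tarbp2 r = -0.702. Among 10129 genes, those most like Ago1 were Rtn4 (r = 0.983) and Pbx2 (r = 0.98), and those most like Ago4 were Macf1 and Pkd2 (r = 0.975 each). Arl8b (r = 0.899) and Setd2 (r = 0.891) were most like Ago2, Tspan4 (r = 0.963) and Saraf (r = 0.907) most like Ago3, and Ccdc117 (r = 0.98) and Clock (r = 0.972) most like Dicer1. For Drosha these were Gm15920 (r = 0.958) and Selenow (r = 0.946), for Dgcr8 Tmem258 (r = 0.962) and Eps15l1 (r = 0.955), for Tarbp2 Psmc1 (r = 0.959) and Gna15 (r = 0.951), and for Xpo5 Sptan1 and Dip2c (r = 0.798 each). These are descriptions of 12 points chosen from many genes.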

How the data were processed

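The authors trimmed the reads with Trimmomatic, aligned them to GRCm38/mm10 with TopHat2 and deposited featureCounts read counts, whole numbers per Ensembl gene without normalization. Tool versions, gene annotation and strand setting are not given in the sources used here. Samples were grouped by their titles. Of 39179 identifiers 37607 had a symbol in GENCODE M21. Technical replicates (chi-square per gene 1.07 to 1.1, against 3.64 to 52.1 between mice) were summed. Genes passing edgeR's filterByExpr (minimum count 10, total 15) were TMM-normalized and tested with the quasi-likelihood F test (two-sided, Benjamini-Hochberg over all genes, 1 model per experiment, no covariate). The SE is the log2 fold change divided by the square root of F. The test code was run on counts simulated from its own fitted model, without pairing of samples. Such a run checks the code and not how the p-values hold for these samples. Samples of the polarization experiment pair by mouse (median correlation of deviations 0.25 within and -0.135 between mice).

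The members, lists and tests were chosen with earlier results of these data known, so that no p is independent of that choice. Named are all members in every comparison, up to 4 called genes of each partner list with the largest change, and for each member the 2 most similar genes among those with a mean log2 CPM of at least 2 (prior count 2). The alternatives tried were the replicate block, DESeq2, size factors by RLE, all genes unfiltered, only the compared groups, 1 technical replicate, other references, the longest transcript and leaving out each replicate. Promoters came from RefSeq (GRCm38.p6, 8 of 9 members matched), with 250 bases before each start searched. R 4.3.3, edgeR 4.0.16, DESeq2 1.42.0, Python 3.11.15 and pandas 2.3.3 were used.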

Additional observations from a re-analysis of the deposited data

Results flagged for a closer look

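Ago2 differed between M2-like and M0 macrophages in opposite directions in the 2 experiments. The log2 fold change was -0.299 at 24 h, where all 3 M2-like samples lay below all 3 M0 samples, and 0.644 in untransfected macrophages of the reprogramming experiment, where all 3 lay above. The experiments were sequenced separately with different reads, and the difference between them was not tested.

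The Ago2 difference to M0 also changed from untransfected to mock treated macrophages, by -0.907 for M1-like (adjusted p = 0.00137) and -0.802 for M2-like macrophages (adjusted p = 0.00828, edgeR interaction tests, contrasts added after the data were examined). Both rest on the same 3 untransfected and 3 mock treated M0 samples. With the replicate number as a block the adjusted p were 1.72e-07 and 2.93e-06.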

How the results depend on the processing

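Counts of members called varied with the setting in most comparisons. The causes were not tested. M0 mock against untransfected M0 gave 1 gene and 2, with Ago3 added, without the filter on low counts, with the replicate block or with only the compared groups. The negative pool against mock gave 1, but 2 with DESeq2, 0 without the filter and 3 with the replicate block. With M2-like mock as reference in place of the negative pool, 1 was called in the E2f1, 2 in the Pparg and 5 in the Stat6 pool instead of 0, and with the replicate block 1 (Ago2) in the Pparg pool. Leaving out 1 replicate gave 1 to 3 for 24 h M2-like against M0, 5 to 8 for 24 h M1-like against M2-like, 4 to 6, 1 to 2 and 5 to 6 for the untransfected comparisons (M1-like against M0, M2-like against M0, M1-like against M2-like), 3 to 5 and 5 to 6 for mock treated M1-like against M0 and M2-like, 0 to 1 for the negative pool, 4 to 6 for the mean of 6 pools, 2 to 3 for the combined and 1 to 4 for the Myc pool. No direction of a called gene turned. With DESeq2 or RLE size factors 24 h M1-like against M0 also called Dicer1. With only the compared groups in the model, Dgcr8 in untransfected M1-like against M2-like (adjusted p = 0.0502) and Drosha in M1-like mock against M0 mock (adjusted p = 0.052) were lost. Of 1269 values with 1 replicate left out, 84 lost and 12 gained a call. The 1269 include all values of members not called in the main setting, which had no call to lose, so that 84 of 1269 is not the rate at which calls were lost.

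With the mouse as a block in the polarization experiment, only Ago3 (M2-like against M0) and Dicer1 (M1-like against M2-like) changed their call. In the reprogramming experiment the replicate numbers are not stated to pair samples. The median correlation of deviations was 0.183 between samples of the same number, with 131 of 198 pairs over 0.1, and 35 of 36 samples correlated best with their own number, a hint from the data and not the design. There the block gained a call for Ago3 in untransfected M2-like (adjusted p = 0.0321) and M0 mock (adjusted p = 0.0218) against untransfected M0, for Ago2 in untransfected M1-like against M2-like (adjusted p = 0.0481) and the Pparg pool (adjusted p = 0.0173), for Ago4 (adjusted p = 0.0405) and Dgcr8 (adjusted p = 0.0422) in the negative pool and for Ago4 in the combined pool (adjusted p = 0.0325).

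Over all genes, the count called, and with it the share printed beside the members, moved by over 1.5 times in these cases. M2-like mock against M0 mock went from 543 to 900 with the block and 111 with only the compared groups. M1-like mock against untransfected M1-like went from 0 to 42 and M2-like mock against untransfected M2-like from 251 to 387 without the filter, and the interaction from 160 to 306. The negative pool gave 1658 against mock and 2906 against untransfected M2-like. The E2f1 pool went from 129 to 223 with DESeq2, 237 without the filter, 236 with the block, 342 with only the compared groups and 1648 against mock, the Pparg pool from 814 to 2441 against mock, and the Stat6 pool from 214 to 363 with DESeq2, 380 with the block and 1624 against mock. On leaving out 1 replicate, 24 h M2-like against M0 went from 4499 to 2951 without M0 mouse 2, M2-like mock against M0 mock from 543 to between 247 and 283, the negative pool from 1658 to 1042 without M2-like mock replicate 3, the E2f1 pool from 129 to between 45 and 69, the Pparg pool from 814 to between 359 and 435 and the Stat6 pool from 214 to between 92 and 139, over the replicates that moved it.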
